A study of Mus musculus with 21 samples.

Results

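*Vdr* and *Esr1*, the genes of the vitamin D receptor and of estrogen receptor alpha, were followed through the DMRs (regions of differential methylation between adenoma and normal intestine) that the study listed from MeDIP-seq of the mouse ileum. Every listed window of 500 bp and every merged region that overlapped either gene body or the 1000 bp upstream of it was taken. This gave 8 of 13980 merged DMRs, of which 5 lay in *Vdr* and 3 in *Esr1*, and they were built from 15 of 17690 listed windows. In *Vdr*, 4 DMRs were higher in adenoma (hypermethylated) and 1 was lower (hypomethylated), whereas all 3 *Esr1* DMRs were hypomethylated. The regions were chosen by the measured MeDIP signal itself, since the listing had selected on the difference between adenoma and normal intestine in these same samples. Values of that contrast therefore describe the regions and carry no test.

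All tissue was ileum of male C57BL/6J mice, 15 to 19 weeks of age. Normal tissue of 3 B6 mice (Apc-+/+, samples B1 to B3) and of 3 APCMin mice (Apc-Min/+, samples N4 to N6) was set against 5 adenomas of APCMin mice (Ad4, Ad4-1, Ad5, Ad6 and Ad7). The Min allele is a germline truncation of *Apc*, so that all cells of the APCMin animals carry it, in normal intestine as in adenoma. Animals 4, 5 and 6 gave both tissues, and Ad4 and Ad4-1 came from the same animal, so that the 5 adenomas stand for 4 mice. Unprecipitated input DNA of B3, N4 and Ad7 served as a control. The first number in the library names split the libraries into B1, B2, N4, Ad4 and Ad4-1 (4), N5, N6 and Ad5 (9), B3 and Ad6 (10), and Ad7 (2). Samples were whole tissue, in which a change in the share of a cell type and a change of methylation within a cell type cannot be told apart. No expression values were analysed here, so the tissue labels were not checked against marker genes.

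Nuclear receptors are transcription factors that are switched by small lipid-soluble ligands. The vitamin D receptor binds DNA mostly as a heterodimer with a retinoid X receptor, and in the intestine it is best known for driving calcium uptake. Estrogen receptor alpha binds DNA as a homodimer and is the main receptor for estradiol in the female reproductive tract and the mammary gland. In MeDIP-seq an antibody against methylated cytosine pulls down DNA fragments, whose coverage, scaled to the number of aligned reads of the library (rpm), is taken as the signal. The signal depends on how many methylated CpG sites a fragment holds, so that a level in rpm was compared between samples at 1 region and not between regions as a degree of methylation.

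In the mm9 build (NCBIM37), *Vdr* (ENSMUSG00000022479.9) lies on chromosome 15 from 97684856 to 97741061 on the minus strand and spans 56.2 kb. Its main transcript Vdr-001 has 10 exons and starts at 97738741. The 4 hypermethylated DMRs all lay in the first intron of this transcript, centred 2.49, 7.24, 11.6 and 16.0 kb downstream of its start. They run from 97736001 to 97736500, from 97731001 to 97732000, from 97726751 to 97727500 and from 97722251 to 97723250. The DMR at 11.6 kb holds the start and the first exon of a shorter transcript, Vdr-002, which begins at 97727244. The hypomethylated DMR lay in intron 4, 37.7 kb from the start, at 97700751 to 97701250. *Esr1* (ENSMUSG00000019768.9) lies on chromosome 10 from 5340927 to 5734948, also on the minus strand of this build, and spans 394 kb. Its main transcript Esr1-001 has 10 exons and starts at 5734552. The first *Esr1* DMR, 20.8 kb downstream, lay in intron 1 at 5713501 to 5714000. The others lay in intron 2, at 71.8 kb (5662251 to 5663250) and at 91.3 kb (5643001 to 5643500). No other annotated gene overlapped any of the 8 regions.

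**Figure D1:**
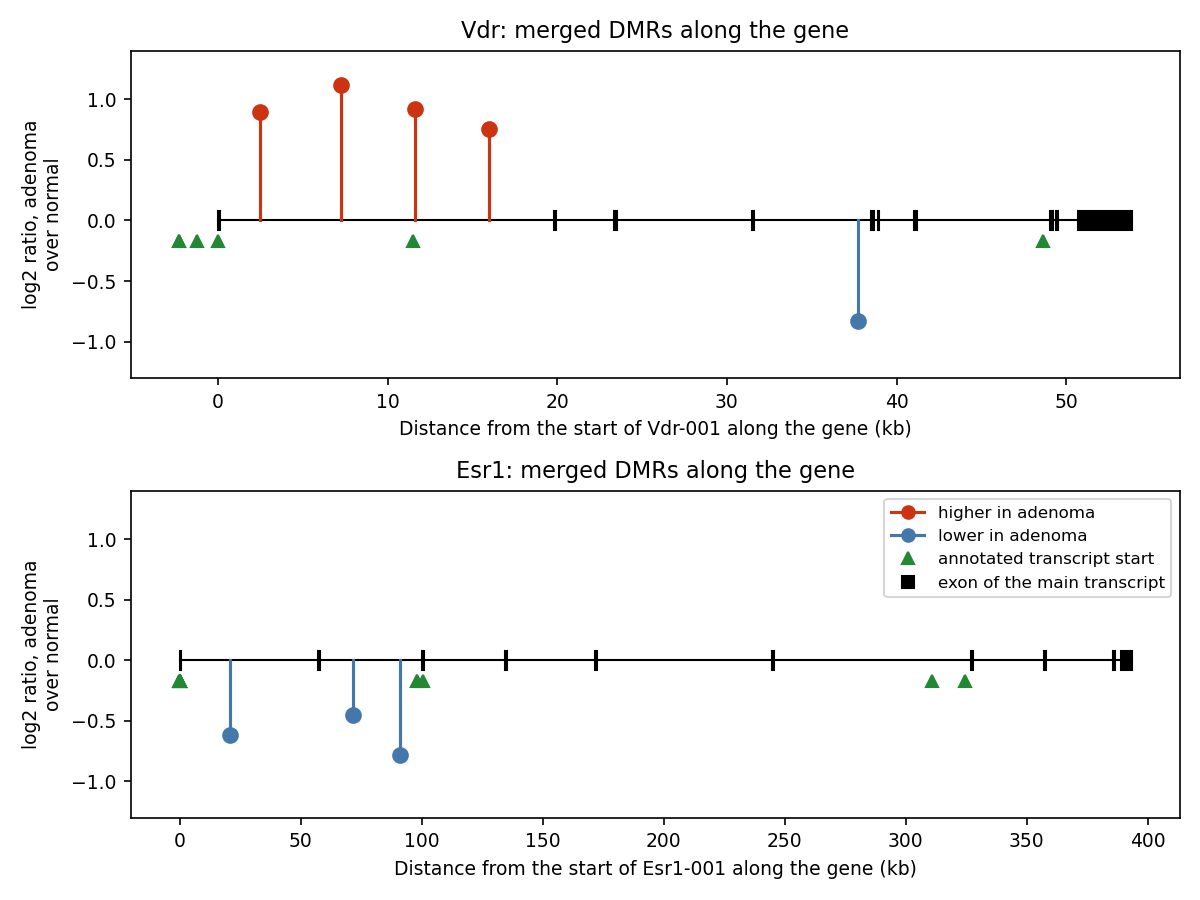
Position (x axis, kb from the start of the main transcript along the gene) and log2 ratio of adenoma over normal intestine (y axis) of the 8 merged DMRs, with exons of the main transcript as black boxes and annotated transcript starts as green triangles. The 4 red *Vdr* DMRs stand between 2.49 and 16.0 kb in the first intron, and the 3 blue *Esr1* DMRs between 20.8 and 91.3 kb.

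Stretches of 300 bases are shown for 5 regions on which the results turn, read from the reference on the strand of the gene, 5′ to 3′, with CpG sites in capitals because methylated CpG is what the antibody captures. The first is the stretch with the most CpG sites in the *Vdr* DMR at 7.24 kb, the region with the largest difference (chr15:97731303-97731602, 11 CpG sites). The second runs from 250 bases before to 50 after the start of Vdr-002, inside the DMR at 11.6 kb (chr15:97727195-97727494, 7 CpG sites). The third belongs to the hypomethylated *Vdr* DMR at 37.7 kb, shown for its lack of CpG (chr15:97700951-97701250, 1 CpG site). The last ones are the stretches with the most CpG sites in the *Esr1* DMRs at 71.8 kb (chr10:5662610-5662909, 11 CpG sites) and 91.3 kb (chr10:5643201-5643500, 3 CpG sites).
Vdr 7.24 kb: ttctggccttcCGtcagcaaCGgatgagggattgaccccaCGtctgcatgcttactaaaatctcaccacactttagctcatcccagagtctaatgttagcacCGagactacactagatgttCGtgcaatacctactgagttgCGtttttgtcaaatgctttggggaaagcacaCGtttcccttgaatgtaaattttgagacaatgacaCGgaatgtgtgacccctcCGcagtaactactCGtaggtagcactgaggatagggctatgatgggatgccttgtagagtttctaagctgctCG
Vdr 11.6 kb: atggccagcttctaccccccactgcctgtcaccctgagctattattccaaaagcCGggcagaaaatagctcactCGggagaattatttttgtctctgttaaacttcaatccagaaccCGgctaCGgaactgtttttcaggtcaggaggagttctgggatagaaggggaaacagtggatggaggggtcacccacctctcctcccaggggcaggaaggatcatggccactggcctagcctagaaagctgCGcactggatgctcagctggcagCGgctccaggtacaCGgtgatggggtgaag
Vdr 37.7 kb: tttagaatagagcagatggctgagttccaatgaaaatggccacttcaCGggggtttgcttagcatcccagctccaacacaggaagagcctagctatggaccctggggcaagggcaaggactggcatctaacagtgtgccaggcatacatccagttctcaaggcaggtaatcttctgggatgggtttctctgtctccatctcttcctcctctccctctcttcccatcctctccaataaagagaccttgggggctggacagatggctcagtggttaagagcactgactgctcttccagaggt
Esr1 71.8 kb: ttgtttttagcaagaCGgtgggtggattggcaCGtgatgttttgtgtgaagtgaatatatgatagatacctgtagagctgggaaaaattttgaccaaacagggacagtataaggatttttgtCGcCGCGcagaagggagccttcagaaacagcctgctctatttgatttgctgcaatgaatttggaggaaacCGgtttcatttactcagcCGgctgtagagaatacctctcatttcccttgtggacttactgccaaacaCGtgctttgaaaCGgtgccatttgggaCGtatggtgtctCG
Esr1 91.3 kb: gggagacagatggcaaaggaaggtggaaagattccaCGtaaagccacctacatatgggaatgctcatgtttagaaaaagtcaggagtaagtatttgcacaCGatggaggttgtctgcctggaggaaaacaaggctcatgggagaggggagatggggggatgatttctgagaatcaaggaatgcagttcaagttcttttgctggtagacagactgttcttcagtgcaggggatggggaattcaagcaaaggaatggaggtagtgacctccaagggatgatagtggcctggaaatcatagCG

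The *Vdr* DMR at 7.24 kb carried the strongest signal of the 8 regions in adenoma. It held 22 CpG sites in 1000 bp. Normal samples ranged from 0.30 to 0.61 rpm with a median of 0.505 rpm, whereas the adenomas had 0.82 (Ad4), 1.28 (Ad4-1), 1.03 (Ad5), 1.45 (Ad6) and 0.98 rpm (Ad7). The lowest adenoma was thus 0.21 rpm above the highest normal sample, and Ad6 and Ad4-1 stood above the other adenomas. Mean signal was 1.11 ± 0.251 rpm (SD, n = 5) in the adenomas against 0.485 ± 0.127 rpm (SD, n = 6) in the normal samples. After adding 0.05 rpm to both means, the log2 ratio was 1.12. Of its 3 windows, the middle one had the largest gap, with 1.19 ± 0.222 rpm against 0.502 ± 0.121 rpm, and the window nearest to the gene start the smallest, with 0.542 ± 0.115 rpm against 0.313 ± 0.0774 rpm. The primers of the study for bisulfite sequencing of *Vdr* matched 97731158 to 97731620, and those for chromatin immunoprecipitation matched 97731255 to 97731341, so both amplicons lay wholly inside this DMR. Readings of either assay were not used here.

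The remaining hypermethylated *Vdr* DMRs had lower signals and adenomas that lay closer together. At 2.49 kb (10 CpG sites in 500 bp) the adenomas had 0.32, 0.37, 0.36, 0.37 and 0.39 rpm in the order Ad4, Ad4-1, Ad5, Ad6 and Ad7, and normal samples 0.08 to 0.22 rpm with a median of 0.195 rpm. The lowest normal sample there was N4. The means were 0.362 ± 0.0259 rpm and 0.172 ± 0.0549 rpm, a log2 ratio of 0.89.

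At 11.6 kb, around the start of Vdr-002 (17 CpG sites in 750 bp), the adenomas had 0.46, 0.36, 0.31, 0.41 and 0.34 rpm in the same order. Normal samples lay between 0.10 and 0.21 rpm with a median of 0.185 rpm, and B3 was the lowest of them. The means were 0.376 ± 0.0594 rpm against 0.175 ± 0.0383 rpm, a log2 ratio of 0.92. At 16.0 kb (19 CpG sites in 1000 bp) the adenomas had 0.44, 0.44, 0.49, 0.49 and 0.48 rpm, which was the narrowest spread of the 8 regions. Normal samples there ranged from 0.19 to 0.31 rpm with a median of 0.265 rpm. The means were 0.468 ± 0.0259 rpm and 0.257 ± 0.0489 rpm, a log2 ratio of 0.76. No adenoma was the highest at all 4 hypermethylated *Vdr* DMRs: Ad6 was highest or tied for it at 2 of them, and Ad4 was lowest or tied for it at 3.

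The hypomethylated *Vdr* DMR in intron 4 was the weakest region of the 8 in adenoma. The adenomas had 0.13 (Ad4), 0.17 (Ad4-1), 0.16 (Ad5), 0.10 (Ad6) and 0.09 rpm (Ad7). Normal samples divided into high values in B1, B2, B3 and N4 (0.27 to 0.37 rpm) and low values in N5 and N6. N5 (0.18 rpm) and N6 (0.19 rpm) were the lowest, and N5 came within 0.01 rpm of the highest adenoma. N5 and N6 were also the only normal libraries with first number 9, and a part of this number in the division was not tested. The means were 0.130 ± 0.0354 rpm and 0.270 ± 0.0735 rpm, a log2 ratio of -0.83, and the mean of the normal samples was close to the study's lower limit of 0.25 rpm for listing. The window held 2 CpG sites in 500 bp, and 1.44% of the 6546 hypomethylated DMRs of this length held fewer, beside a median of 8. The hypermethylated *Vdr* DMR of the same length, at 2.49 kb, held 10, beside a median of 7 in the 4266 hypermethylated DMRs of 500 bp.

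All *Esr1* DMRs had less signal in adenoma. At 20.8 kb (7 CpG sites in 500 bp) normal samples ranged from 0.26 to 0.47 rpm with a median of 0.345 rpm, and the adenomas had 0.24, 0.25, 0.23, 0.11 and 0.25 rpm in the order Ad4, Ad4-1, Ad5, Ad6 and Ad7. Ad6 stood below the other adenomas, the highest of which came within 0.01 rpm of the lowest normal sample, B2. The means were 0.216 ± 0.0598 rpm and 0.357 ± 0.0946 rpm, a log2 ratio of -0.61.

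At 71.8 kb (16 CpG sites in 1000 bp) the signal was the highest of the *Esr1* regions. Normal samples had 0.60 to 0.95 rpm with a median of 0.700 rpm, B1 being the highest, and the adenomas had 0.57, 0.46, 0.48, 0.53 and 0.55 rpm. The means were 0.518 ± 0.0466 rpm against 0.728 ± 0.121 rpm, a log2 ratio of -0.45, which was the smallest of the 8 regions. Of its 3 windows, the one centred at 71.6 kb overlapped between the groups, and it was the only such window among the 15. At 91.3 kb (5 CpG sites in 500 bp) the adenomas had 0.20, 0.30, 0.20, 0.28 and 0.25 rpm and normal samples 0.35 to 0.59 rpm with a median of 0.440 rpm. This was the largest difference in *Esr1*, with means of 0.246 ± 0.0456 rpm and 0.458 ± 0.0915 rpm and a log2 ratio of -0.78. The region lay 6.86 kb upstream of the start shared by the shorter transcripts Esr1-004 and Esr1-007.

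**Figure D2:**
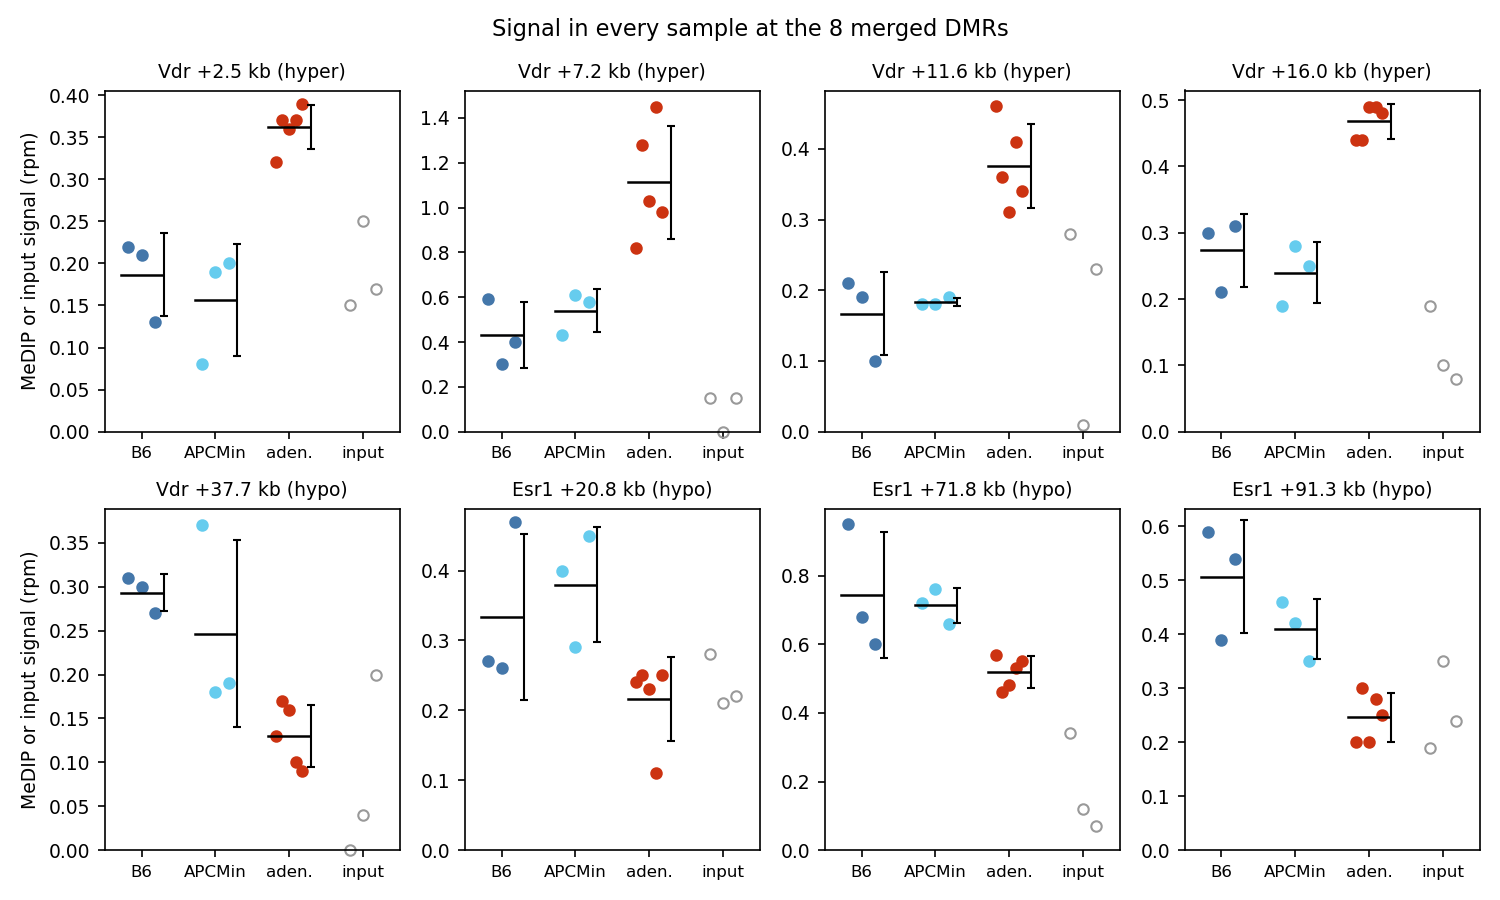
Signal (y axis, rpm) of every sample at the 8 merged DMRs, in normal intestine of B6 mice, normal intestine of APCMin mice, adenoma (aden.) and input DNA (open circles), with the mean as a bar and the SD as a whisker for the MeDIP groups; hyper and hypo mark DMRs higher and lower in adenoma. Adenomas lie above all normal samples in the 4 hypermethylated panels and below them in the 4 hypomethylated ones, with gaps of 0.01 to 0.21 rpm.

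In all 8 merged DMRs the 5 adenomas did not overlap with the 6 normal samples. The same held for 44.5% of all listed hypermethylated DMRs and 51.9% of the hypomethylated ones, and the rule that listed them favours such regions. Across the genome, 0.0577% of windows were listed as hypermethylated and 0.109% as hypomethylated. Of the 231 windows that overlap *Vdr* with its upstream region, 3.90% were listed as hypermethylated and 0.433% as hypomethylated, whereas of the 1582 windows of *Esr1* none was hypermethylated and 0.316% were hypomethylated. These shares follow from the choice of the genes and are given as a description.

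The *Vdr* and *Esr1* regions took different places among the listed DMRs. The *Vdr* DMR at 7.24 kb ranked 67 of 5135 hypermethylated DMRs by log2 ratio, and its signal in adenoma exceeded that of 96.5% of them. This rank was 16 with 0.5 rpm added in place of 0.05 rpm and 123 with 0.01 rpm. The DMRs at 2.49, 11.6 and 16.0 kb had a larger log2 ratio than 94.9%, 95.8% and 87.0% of the hypermethylated DMRs, whose median was 0.55. Of the hypomethylated regions, the *Vdr* DMR at 37.7 kb and the *Esr1* DMRs at 91.3, 20.8 and 71.8 kb exceeded 80.5%, 74.5%, 45.1% and 12.8% of the hypomethylated DMRs in size, beside a median of -0.64. By signal, however, the *Esr1* DMR at 71.8 kb was above 87.8% of them, and the *Vdr* DMR at 37.7 kb above 8.60%.

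**Figure D3:**
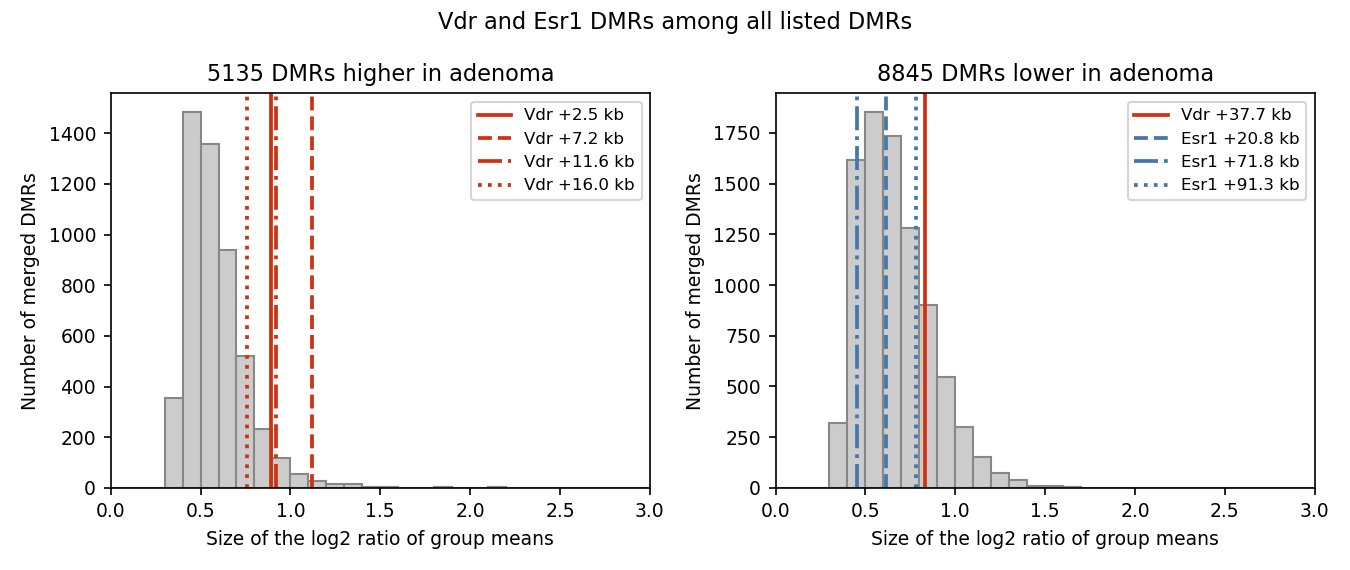
Number of merged DMRs (y axis) by the size of the log2 ratio of group means (x axis), for the 5135 hypermethylated DMRs on the left and the 8845 hypomethylated DMRs on the right, with vertical lines at the *Vdr* (red) and *Esr1* (blue) regions. The 4 *Vdr* lines on the left stand at 0.76 to 1.12, right of the median of 0.55, and the *Esr1* lines on the right between 0.45 and 0.78.

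Both genes were chosen with earlier results of these data known, so their numbers of DMRs beside those of other genes are given as a description. Of 22238 protein coding genes, 39 held at least 4 hypermethylated DMRs, and 3 of these other than *Vdr* were no longer than it, namely *Cbln4*, *Cd74* and *Hoxa3*. At least 3 hypomethylated DMRs, as in *Esr1*, were found in 394 genes, and *Esr1* is longer than most, with 331 genes, itself included, of at least its length. Outside both genes the closest listed DMR was a hypomethylated one 10.3 kb upstream of the promoter limit of *Esr1* (log2 ratio -0.63), whereas around *Vdr* the nearest was a hypermethylated one 87.4 kb away (0.72). The start of Vdr-002 lay in listed windows, whereas none of the RefSeq promoters overlapped any of the 8 DMRs. These promoter sequences (GRCm38.p6 table, 250 bases before to 50 after the start) matched the reference used here exactly. That of *Vdr* (97738678 to 97738977) held 15 CpG sites and ended 2.18 kb from the nearest DMR. Those of *Esr1* held 6 CpG sites (5734503 to 5734802, 20.5 kb from the nearest DMR) and 12 (5636334 to 5636633, 6.37 kb away).

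Adenoma and normal intestine of the same animal were compared for animals 4, 5 and 6. All 4 pairs moved in the listed direction at all 8 DMRs. This had to be so, since the adenomas and normal samples did not overlap there, which the rule of listing favours. At the *Vdr* DMR at 7.24 kb the signal went from 0.43 rpm in N4 to 0.82 in Ad4 and 1.28 rpm in Ad4-1, from 0.61 in N5 to 1.03 rpm in Ad5, and from 0.58 in N6 to 1.45 rpm in Ad6. The log2 ratios of these pairs were 0.86, 1.47, 0.71 and 1.25. At the *Vdr* DMR at 37.7 kb, the log2 ratio was -1.22 for Ad4 and -0.13 for Ad5, and at the *Esr1* DMR at 20.8 kb it was -1.64 for Ad6 and -0.28 for Ad5. Averaged by animal as a replicate block, the log2 ratio was 1.04 at the *Vdr* DMR at 7.24 kb and -0.66 at the *Esr1* DMR at 91.3 kb.

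**Figure D4:**
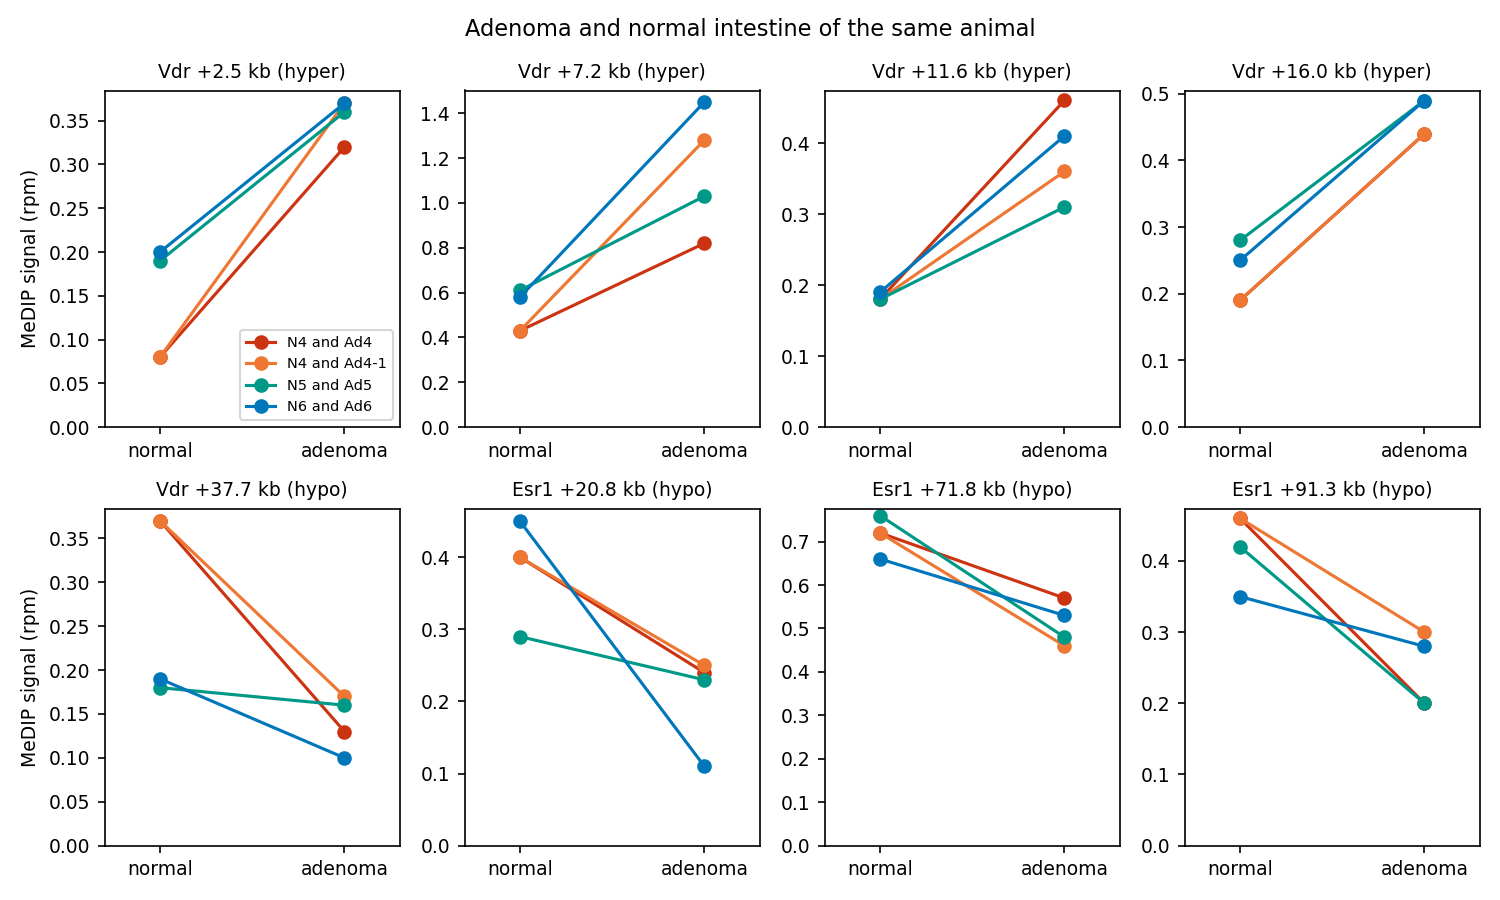
Signal (y axis, rpm) in normal intestine and adenoma of the same animal for the 4 pairs (colours; N4 is drawn with both Ad4 and Ad4-1), with a panel for each merged DMR. All lines slope up in the 4 hypermethylated panels and down in the 4 hypomethylated ones, the flattest being N5 and Ad5 at the *Vdr* DMR at 37.7 kb (log2 ratio -0.13).

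Within the libraries that share their first number, the direction was the same at all 8 DMRs for each of the 3 numbers with both tissues. Since adenomas and normal samples did not overlap at any of the 8 DMRs, this direction was fixed beforehand, and only the sizes are informative. Among the 5 libraries of number 4, the log2 ratio was 1.17 at the *Vdr* DMR at 7.24 kb, -0.91 at 37.7 kb, and -0.29, -0.56 and -0.82 at the *Esr1* DMRs at 20.8, 71.8 and 91.3 kb. With number 9, where 1 adenoma faced N5 and N6, these values were 0.74, -0.16, -0.58, -0.52 and -0.80. With number 10, where Ad6 faced B3 alone, they were 1.74, -1.09, -1.70, -0.16 and -0.84.

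The input libraries were shallower than the MeDIP libraries, with 3228908 to 5931425 uniquely aligned reads beside 13878615 to 26297510. At the 8 regions an input value rested on 0 to 3.01 fragments. Input was 0.15, 0 and 0.15 rpm in B3, N4 and Ad7 at the *Vdr* DMR at 7.24 kb, far below the MeDIP signal. At 2.49 kb it was 0.15, 0.25 and 0.17 rpm, which in B3 and N4 exceeded the MeDIP values of these samples (0.13 and 0.08 rpm). At 11.6 kb it was 0.28, 0.01 and 0.23 rpm, again above the MeDIP value in B3. The Ad7 input differed from the N4 input in the listed direction at 4 of the 8 DMRs. At the hypomethylated regions, Ad7 had a MeDIP signal close to or below its own input at 3 of 4, with differences of -0.11 rpm at 37.7 kb in *Vdr* and of 0.03 and 0.01 rpm at 20.8 and 91.3 kb in *Esr1*. At 71.8 kb in *Esr1* its MeDIP signal was 0.48 rpm above input. A part of copy number in the differences was not tested at this depth.

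The spread of the adenomas was small at most of these regions. The coefficient of variation of the 5 adenomas ranged from 5.53% at 16.0 kb in *Vdr* to 27.7% at 20.8 kb in *Esr1*. It exceeded the counting error expected for the number of fragments in a window at 1 of 8 regions, the *Vdr* DMR at 7.24 kb (22.6% against 17.8%), where values rested on 22.7 to 51.2 fragments. Without Ad6 it did so at 0 regions. In normal intestine it was also 1 region, the same one, with 26.1% against 25.3%. Regions were listed by a rank test, which favours groups of small spread. For regions longer than 500 bp, whose values are medians of windows, the counting error of a single window was used and may be too large. The share of all listed DMRs above this error was not computed.

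Whether normal intestine of APCMin mice differed from that of B6 mice was tested with limma over all 17690 listed windows, a contrast within the 6 samples that the listing had pooled as normal. The listing set these samples against the adenomas and so favoured windows in which the normal samples lie close together, which limits what this test can find. At an adjusted p under 0.05 (Benjamini-Hochberg) 0 windows differed, with a smallest adjusted p of 0.603. At an unadjusted p under 0.05 there were 838 windows (4.74%), of which 603 were lower and 235 higher in APCMin normal intestine. Among the 15 windows of *Vdr* and *Esr1* 1 had such a p. This was the window of *Vdr* centred at 15.7 kb, with 0.153 rpm in APCMin and 0.273 rpm in B6 normal intestine, a log2 difference of -0.68 with a 95% interval of -1.19 to -0.16 (adjusted p of limma 0.97). The other 14 windows had intervals that included 0.

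**Figure D5:**
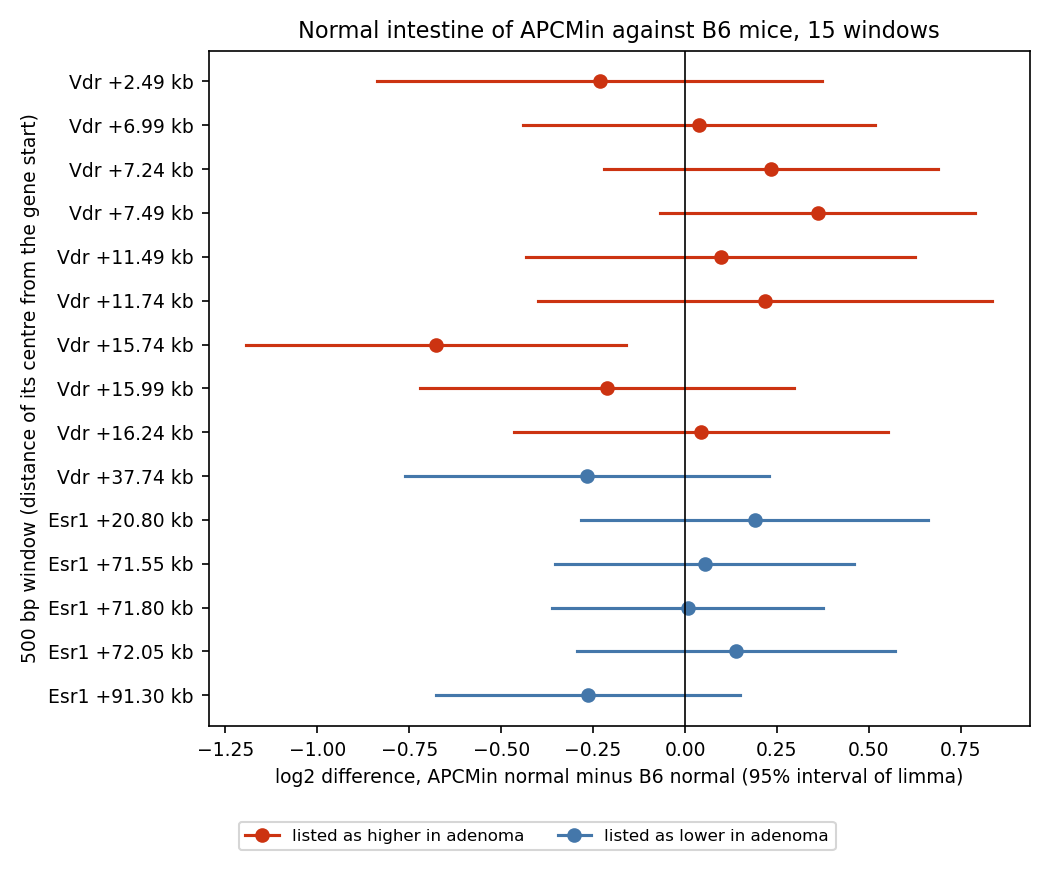
Log2 difference of APCMin normal minus B6 normal intestine (x axis, point) with the 95% interval of limma (line) for the 15 windows of *Vdr* and *Esr1* (y axis, by the distance of the window centre from the gene start). The intervals of 14 windows include 0, and that of the *Vdr* window at 15.7 kb lies from -1.19 to -0.16.

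By region, normal intestine of APCMin mice had 0.540 ± 0.0964 rpm at the *Vdr* DMR at 7.24 kb and that of B6 mice 0.430 ± 0.147 rpm (SD, n = 3 each; two-sided exact permutation test, p = 0.3, which is above the smallest possible value of 0.1). At the *Esr1* DMR at 91.3 kb the means were 0.410 ± 0.0557 and 0.507 ± 0.104 rpm (exact permutation test, p = 0.3). For the 8 regions the exact p ranged from 0.3 to 1, and adjusted over them from 0.8 to 1, and with 3 animals in each group no p under 0.05 was possible, so that this test cannot tell whether the normal groups differ. Against APCMin normal intestine alone, the log2 ratio of adenoma was 0.98 at the *Vdr* DMR at 7.24 kb and -0.64 at the *Esr1* DMR at 91.3 kb, and against B6 normal intestine alone it was 1.28 and -0.91.

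Exact matches to short sequences that nuclear receptors can bind were searched on both strands of the 8 regions. Elements that differ from these letters were not searched, so a lack of matches does not show a lack of binding sites. The palindromic estrogen response element, and the direct repeat with a spacer of 3 bases to which the vitamin D receptor binds with its partner, were found in none of them. Among all listed DMRs, the palindrome was found in 1 of 5135 hypermethylated and 6 of 8845 hypomethylated regions, and the direct repeat in 3 and 0. AGGTCA, the core that both elements repeat in full or nearly so, was present in all 4 hypermethylated *Vdr* DMRs, with 2 matches at 7.24 kb and 1 in each of the others, and in the *Esr1* DMR at 91.3 kb. It was found in 28.7% of hypermethylated DMRs of 500 bp, 42.1% of those of 750 bp and 50% of those of 1000 bp, and in 1830 of 6546 hypomethylated DMRs of 500 bp. The letters CTTTGA, which T-cell factors of the Wnt pathway bind, occurred 3 times in the *Esr1* DMR at 71.8 kb, where 53.6% of hypomethylated DMRs of 1000 bp held them, and 1 time in each of the *Vdr* DMRs at 16.0 and 37.7 kb, beside 41.5% and 33.5% of the DMRs of their length and direction. Such matches describe letters and not bound sites.

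By its values over the 11 MeDIP samples, the *Vdr* DMR at 7.24 kb was most like a DMR in *Ano1* (Pearson r of log2 rpm 0.96), followed by DMRs in *Srp72* (0.94) and *Ptprr* (0.93), out of 1541 hypermethylated DMRs compared, whose median r was 0.64. *Ano1* encodes a calcium-activated chloride channel, and its log2 ratio was 2.59. The *Esr1* DMR at 91.3 kb was most like DMRs in *Bfsp2* (0.96), *Peli2* (0.96) and *Negr1* (0.95), out of 2845 hypomethylated DMRs with a median r of 0.71. All these regions were listed for the same contrast of tissues, which by itself gives high correlations.

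Of 49 genes of the nuclear receptor family, 20 (40.8%) held a hypermethylated DMR and 13 (26.5%) a hypomethylated one, and 8 (16.3%) held both. Without *Vdr* and *Esr1* these were 19 and 11 of 47. Over all protein coding genes the shares were 11.1% and 14.3%, and 3.93% held both. Receptor genes are long, with a median of 47.1 kb beside 15.5 kb for all genes, and the part of length in these shares was not tested. With DMRs in promoters alone, 1 receptor gene of 49 was hypermethylated and 1 hypomethylated, beside 0.818% and 0.746% of all genes. A DMR of 2 overlapping receptor genes, *Thra* and *Nr1d1*, was counted for both.

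*Rxra*, which encodes a retinoid X receptor, the class of receptor that pairs with the vitamin D receptor, held 4 hypermethylated DMRs and no hypomethylated one, the same number of hypermethylated DMRs as *Vdr*. Their signals were 0.326 ± 0.0586, 0.596 ± 0.0924, 0.352 ± 0.0657 and 1.2 ± 0.114 rpm in adenoma, and 0.188 ± 0.0556, 0.380 ± 0.105, 0.215 ± 0.0259 and 0.883 ± 0.171 rpm in normal intestine. The log2 ratios were 0.66, 0.59, 0.60 and 0.42, each below those of the 4 *Vdr* DMRs, and the groups overlapped at 3 of the 4. In the vitamin D pathway as a whole, 6 of 20 genes (30%) had a hypermethylated DMR and 3 (15%) a hypomethylated one, beside 11.1% and 14.3% of all genes, while 13 had none. The median length of these 20 genes was 24.9 kb, beside 15.5 kb for all genes, and the part of length was not tested. *Cyp24a1*, whose product breaks vitamin D down, held 1 hypermethylated DMR (0.274 ± 0.0462 rpm in adenoma against 0.192 ± 0.0376 rpm in normal intestine, log2 ratio 0.42). *Trpv6*, a calcium channel of the intestine, also held 1 (0.294 ± 0.0994 against 0.128 ± 0.0736 rpm, 0.95). Signal was low and the groups overlapped at both DMRs. *Gc*, the vitamin D-binding protein, held a hypomethylated one with 0.312 ± 0.0785 rpm in adenoma against 0.543 ± 0.0650 rpm in normal intestine (-0.71). *Cyp27b1*, which makes the active hormone, and *S100g*, a calcium-binding protein of enterocytes, held none.

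In the estrogen pathway, 3 of 14 annotated genes (21.4%) had a hypermethylated DMR and 1 (7.14%) a hypomethylated one, beside 11.1% and 14.3% of all genes. *Hsd17b2*, which oxidises estradiol to a weaker estrogen, held 2 hypomethylated DMRs, the one of higher signal with 0.318 ± 0.0589 rpm in adenoma against 0.660 ± 0.198 rpm in normal intestine (log2 ratio -0.95). *Esr2*, the gene of estrogen receptor beta, held a hypermethylated DMR of low signal (0.256 ± 0.0650 against 0.0983 ± 0.0512 rpm, 1.04), in which the groups overlapped. The progesterone receptor gene *Pgr* held another of low signal (0.252 ± 0.00837 against 0.168 ± 0.0649 rpm, 0.47), also with overlap. Both of these weak DMRs had a direction opposite to that of the *Esr1* DMRs. So did the hypermethylated DMR of the remaining gene, *Gata3* (0.328 ± 0.0303 against 0.220 ± 0.0681 rpm, 0.49), at which the groups did not overlap. Of 12 coregulators that nuclear receptors share, 4 (33.3%) held a hypermethylated and 3 (25%) a hypomethylated DMR, beside 11.1% and 14.3% of all genes. These coregulator genes had a median length of 96.1 kb, beside 15.5 kb for all genes, and the part of length was not tested. *Nrip1*, a corepressor that binds ligand-bound receptors, held 2 hypermethylated DMRs and 1 hypomethylated one. The hypermethylated DMR of higher signal had 0.630 ± 0.104 against 0.337 ± 0.126 rpm (0.81), and the groups overlapped there. Signal was highest at the hypomethylated one, with 1.14 ± 0.0892 rpm in adenoma against 1.57 ± 0.338 rpm in normal intestine (-0.45), again with overlap. The acetyltransferase gene *Crebbp* held a hypermethylated DMR of 0.594 ± 0.0902 against 0.350 ± 0.0613 rpm (0.69).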

How the data were processed

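MeDIP-seq of 11 samples and 3 inputs was used. According to the study's methods and the processing notes, the authors aligned reads to mm9 with Bowtie 0.12.5, extended unique reads to 300 nucleotides and averaged the coverage in 500 bp windows placed every 250 bp. The deposited rpm values are this coverage divided by the unique reads of the library, with 2 decimals, for windows that passed the authors' rank sum test (p under 0.01), a ratio of means and a mean above 0.25 rpm. Deposited ratios and p-values were not used. Each merged region equalled the median of its windows (within 0.01 rpm, 13980 of 13980). The expression table held no values.

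Ratios were taken after adding 0.05 rpm to group means. The normal groups were compared with limma 3.58.1 (trend, log2 scale, checked on simulated data) and, per region, an exact permutation test (scipy). Genes came from gencode vM1. Members and gene lists were chosen with earlier results of these data known. Apart from all member DMRs, listed genes with at least 0.5 rpm were named by size of ratio (at most 10), besides those that counts needed, with 1 left out that is not reported here, and per gene the 3 DMRs most alike. Animals 4, 5 and 6 pair by the labels: in 4 same-animal pairs of samples, deviations from group means had a Pearson's r between -0.05 and 0.03, and in 11 other pairs between -0.03 and 0.07. Counting errors cover fragments of 300 bases only.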

Additional observations from a re-analysis of the deposited data

Results flagged for a closer look

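In 16 groups of samples at the 8 merged DMRs, 2 samples stood apart from the rest of their group by Dixon's test, which by chance alone marks about 1 group in 20. At the *Vdr* DMR at 11.6 kb, B3 had 0.10 rpm beside 0.18 to 0.21 rpm in the other normal samples. At the *Esr1* DMR at 20.8 kb, Ad6 had 0.11 rpm beside 0.23 to 0.25 rpm in the other adenomas.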

How the results depend on the processing

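No log2 ratio of the 8 DMRs changed its direction in any of the settings tried, and 151 of 160 values stayed within 1 SD of the one reported. The direction could not change, since the groups did not overlap at these DMRs and each window was listed by its direction. With 0.5 rpm added in place of 0.05 rpm, the median log2 ratio of the 4 hypermethylated *Vdr* DMRs went from 0.91 to 0.37, the hypomethylated *Vdr* DMR from -0.83 to -0.29 and the median of the *Esr1* DMRs from -0.61 to -0.27, since the added value exceeds most of the signal. With the animal as a replicate block these were 0.95, -0.63 and -0.66, and the pairing likewise could not change a direction. Leaving out samples in turn gave 0.83 to 0.96, -0.91 to -0.74 and -0.68 to -0.48. Leaving out adenomas gave 0 to 1 regions whose spread exceeded the counting error, 0 without Ad6.

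Between the normal groups, 0 windows passed the adjusted threshold with other pseudocounts, filters or all 11 samples, and 0 to 7 when samples were left out (1 without B1, 7 without N6), 0 of them in *Vdr* or *Esr1*. Of the 15 windows there, 0 to 2 had an unadjusted p under 0.05.

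Among gene lists, only nonoverlapping DMRs left 8 hypermethylated receptor genes, 2 hypermethylated and 1 hypomethylated vitamin D genes and 1 hypermethylated estrogen gene (all genes: 5.78% hyper, 8.48% hypo). A ratio above 2 left 3 and 4 receptor genes, 1 and 0 vitamin D genes, 1 hypermethylated estrogen gene, and 0 and 1 coregulators (all genes: 1.09% and 3.43%). Promoters alone left 1 and 1 receptor genes and 0 in each other list (all genes: 0.818% and 0.746%). With 5000 bp upstream, 3 estrogen genes were hypomethylated (all genes: 15.7%). Ranks with other pseudocounts, the B3 input and the spread without single adenomas were chosen after seeing the data. Shallow input and signals of a few fragments limit single values.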

Other observations

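Several receptor genes other than *Vdr* held DMRs of both directions. *Esrrg*, the gene of an orphan receptor related to the estrogen receptors, spans 606 kb and held 4 hypermethylated and 6 hypomethylated DMRs. Its hypermethylated DMR with the highest signal had 0.506 ± 0.136 rpm (SD, n = 5) in the adenomas against 0.312 ± 0.0479 rpm (SD, n = 6) in the normal samples (log2 ratio 0.62), with overlap of the groups. *Rora*, an orphan receptor of the circadian clock, spans 734 kb and held 3 and 4. The part of gene length in these numbers was not tested. *Ppard*, a fatty acid receptor, held 1 and 4, with log2 ratios of 0.70 (0.838 ± 0.0915 against 0.498 ± 0.113 rpm) and, at the hypomethylated DMR with the highest signal, -0.74 (0.480 ± 0.0667 against 0.833 ± 0.130 rpm). *Rara*, a retinoic acid receptor, held 1 and 2. The hypermethylated one had a log2 ratio of 0.67 (0.530 ± 0.0964 against 0.313 ± 0.0999 rpm), with overlap of the groups. The longer hypomethylated one had -0.63 (0.464 ± 0.0550 against 0.745 ± 0.111 rpm), without overlap.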
